A study of Mus musculus with 12 samples.

Results

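Chemokines and their receptors were followed across 12 mouse uteri, from a list of 39 gene symbols made up of 30 ligands and 9 receptors. A probe on the array was found for 38 of them, and 30 genes, 24 ligands and 6 receptors, were kept because their probe was detected on at least 3 of the 12 arrays, out of 12194 genes tested in all. The symbols were chosen for their function, with earlier results of these data known. Where a gene had several probes, the one with the highest mean signal stands for it. Of the 8 genes that had a probe and were not kept, Ccl22, Ccl24, Ccl28, Cxcl11, Ccr1 and Cxcr6 were detected on no array, Ccr3 was detected on 1 and Cxcl13 on 2. Cxcl2, Ccr7 and Cxcr2 were kept with exactly 3 arrays. Cxcl5 was not analysed here.

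The uteri came from female mice of the C57BL/6 background, necropsied at 2 months of age, with 3 uteri in each of 4 genotypes. Control uteri were wild type (Cdh1+, P53+), the Cdh1 cKO was Cdh1-, P53+, the P53 cKO was Cdh1+, P53-, and the double cKO lacked both genes (Cdh1-, P53-). Cdh1 encodes the epithelial adhesion protein E-cadherin, and P53, the product of Trp53, is a tumour suppressor. The study compared single and combined ablation of the genes in the uterus. No source used here names the recombinase or its promoter, the exons deleted, the estrous stage, or whether the mice were littermates.

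Chemokines are small secreted proteins that guide migrating cells along a gradient towards its source. Their receptors are coupled to G proteins and sit mainly on leukocytes, and 1 receptor usually answers to several ligands. The names follow the spacing of the first cysteines of the protein (CC, CXC, CX3C). In the uterus, chemokines are known to bring neutrophils, macrophages and uterine NK cells into the tissue through the cycle and in pregnancy. Whole uterus was measured, so fewer cells of a type and less RNA per cell cannot be told apart.

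Promoter sequence is shown for Cxcl1, Cxcl2 and Ccl9, because Cxcl1 and Ccl9 rose in the double cKO, Cxcl2 is the neighbour of Cxcl1, and the promoter of each carries the consensus of NF-kappaB, a transcription factor known to switch on chemokine genes after IL-1 or TNF signalling. RefSeq promoters of build GRCm38.p6 were found for 23 of the 30 genes, as 24 promoters. The NF-kappaB consensus, sought on both strands, stood in 5 of the 24, those of Ccl9, Ccl20, Cxcl1, Cxcl2 and Cxcl10, and in 4.51% of all 32851 promoters of the same length. The sequences below run 5′ to 3′ on the strand of the gene over the 250 bases before its start, with capitals on the bases that match the consensus, where overlapping matches are joined. They lie at chr5:90890995-90891244 on the + strand for Cxcl1, at chr5:90903649-90903898 on the + strand for Cxcl2 and at chr11:83578637-83578886 on the - strand for Ccl9.
Cxcl1: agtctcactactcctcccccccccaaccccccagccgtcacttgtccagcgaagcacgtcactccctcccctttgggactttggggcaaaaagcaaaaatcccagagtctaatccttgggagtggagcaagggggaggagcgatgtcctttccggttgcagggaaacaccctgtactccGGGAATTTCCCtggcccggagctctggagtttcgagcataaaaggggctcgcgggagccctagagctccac
Cxcl2: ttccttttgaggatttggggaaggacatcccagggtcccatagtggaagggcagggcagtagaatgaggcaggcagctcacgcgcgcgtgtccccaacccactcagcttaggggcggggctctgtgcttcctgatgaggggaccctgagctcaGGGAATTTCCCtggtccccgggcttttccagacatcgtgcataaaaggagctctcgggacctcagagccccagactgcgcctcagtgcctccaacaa
Ccl9: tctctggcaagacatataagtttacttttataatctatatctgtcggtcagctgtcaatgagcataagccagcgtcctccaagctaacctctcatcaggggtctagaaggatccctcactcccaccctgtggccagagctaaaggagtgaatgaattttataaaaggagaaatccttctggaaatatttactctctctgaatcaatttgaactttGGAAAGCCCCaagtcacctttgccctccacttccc
The first matching base lay 71 bases before the start in Cxcl1, 97 in Cxcl2 and 35 in Ccl9. Cxcl1 and Cxcl2 are next to each other on chromosome 5, and the longest run their upstream sequences shared was 14 bases long and included the match. A match describes these letters and was not tested as a binding site.

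Each uterus was measured on 1 Illumina bead array, and between 44.3% and 47.9% of the 45281 probes were detected per array. Values are log2 signals after background correction and quantile normalisation. The lowest signal among detected probes lay between 4.80 and 4.98 on the 12 arrays, so values near or under this floor carry no order. Of the targeted genes, Cdh1 was not called in the uteri labelled Cdh1 cKO (difference from control 0.03 ± 0.45, SE), nor in the double cKO (-1.33 ± 0.45, SE, adjusted p = 0.154). Its double cKO arrays read 9.67, 8.18 and 7.36 against 9.41 to 10.08 in control, so replicate 1 lay in the control range. Whether the Cdh1 probe lies in the deleted part is unknown here, and Trp53 was not analysed here, so the P53 labels were not checked. The summed signal of oviduct and ciliated cell markers was 10110 in double cKO replicate 1 against 301 and 303 in the other 2 double cKO uteri, 1667 to 4239 in control, 438 to 512 in the Cdh1 cKO and 596 to 2333 in the P53 cKO, so results that change without that uterus are named. Of 9 genes of uterine identity 8 passed the detection rule; Hoxa10 was detected on all 12 arrays and Hoxa11 on 9, of which 1 was a double cKO array.

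Against control, chemokine RNA in the double cKO was mostly higher. The neutrophil ligands Cxcl1 and Ppbp with their receptor Cxcr2, the myeloid ligands Ccl3, Ccl6 and Ccl9, the Ccr4 ligand Ccl17, and Cxcl16 rose, and the stromal chemokine Cxcl12 fell. That made 8 of 30 genes higher and 1 lower at an adjusted p below 0.05, where 1.91% of all genes tested were higher, 0.82% were lower and 2.73% were called either way. The median difference over the 30 genes was 0.93 on the log2 scale, or 0.90 with the 13 genes not detected on every array of the lower group at their bound, against -0.04 over all genes. Double cKO and control arrays did not overlap, with the double cKO higher, for 18 of the 30 genes (11.5% of all genes) and, with the double cKO lower, for 1 (14.2% of all genes). Of the 18, Ccl2 and Cxcl2 had a double cKO array under the floor, where values carry no order, and no detected control array. Cxcr2 was detected in the double cKO alone and Ccl17 on 1 array outside it, so both were kept through the group where they are high, and the detection rule partly fixed their difference in every comparison with the double cKO. Cxcl2, Ccl20, Ccr2 and Ccr7 were also detected on 1 array each outside the double cKO, so the same limit holds for them. Cxcl2, Ccl20 and Ccr2 are among the 18.

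**Figure D1:**
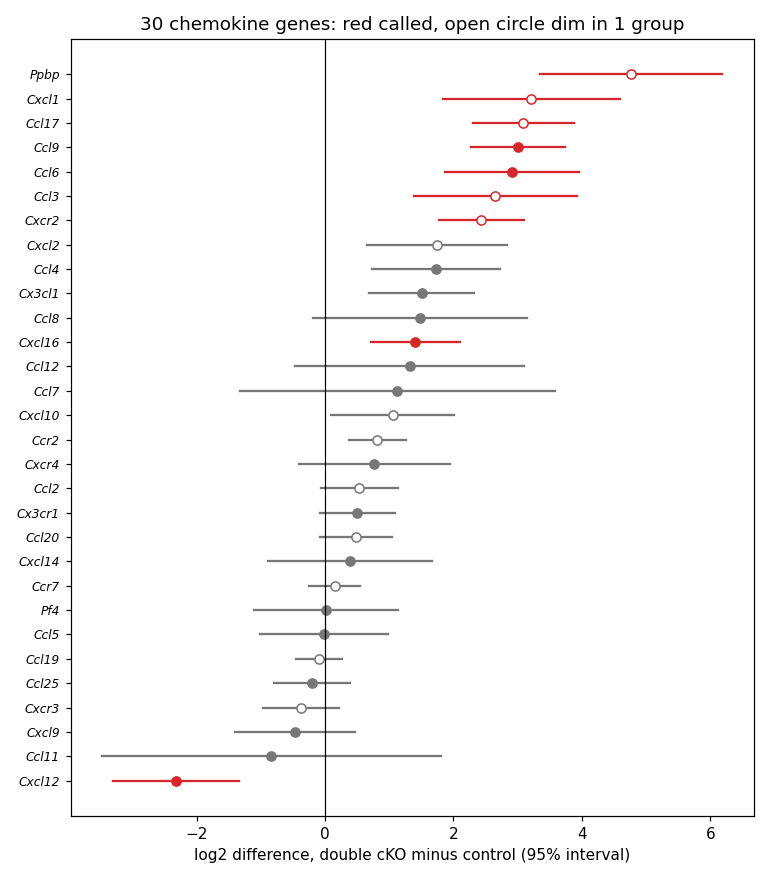
Log2 difference between double cKO and control (x axis) for the 30 chemokine ligands and receptors (y axis), with the 95% interval of the limma fit, 3 arrays per group. Red marks the 9 genes at an adjusted p below 0.05, and an open circle marks a gene not detected on every array of the lower group. Open circles are fitted values and no bounds. Cxcl12 is the 1 red point left of 0, at -2.32.

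Cxcr2 is the receptor that draws neutrophils towards the ELR-type CXC ligands. Its log2 signal was 4.54, 4.33 and 4.54 in control, 4.71, 4.85 and 4.80 in the Cdh1 cKO, 4.56, 4.30 and 4.56 in the P53 cKO, and 7.12, 6.05 and 7.54 in the double cKO. It was detected on the 3 double cKO arrays and on no other, and every double cKO array lay above all 9 others. Set against the floor of the control arrays, the double cKO was at least 4.11-fold higher (adjusted p = 0.00173). A second Cxcr2 probe was detected on 0 arrays, so the rise rests on 1 of 2 probes. Cxcr1, the related receptor for the same class of ligands and no member of the list, was at least 1.48-fold higher (adjusted p = 0.00737). Cxcr1 too was detected on the 3 double cKO arrays alone, so the detection rule partly fixed its difference.

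Ppbp, the precursor of neutrophil-activating peptide and a Cxcr2 ligand best known from platelets, was also near or under the floor outside the groups with Cdh1 ablated. It measured 4.62, 4.59 and 4.42 in control, 5.09, 5.16 and 7.49 in the Cdh1 cKO, 4.80, 4.70 and 4.77 in the P53 cKO, and 8.55, 8.71 and 10.67 in the double cKO. All double cKO arrays lay above every other array, and the Cdh1 cKO arrays lay between them and the remaining groups, with replicate 3 well above its group. The double cKO was at least 21.8-fold higher than control (adjusted p = 0.00291). A second Ppbp probe read 4.59, 4.32 and 4.47 in control and 8.38, 8.35 and 10.09 in the double cKO. In the Cdh1 cKO it read 4.83, 4.84 and 7.42, where only replicate 3 was detected. The level of Cdh1 cKO replicates 1 and 2 above the floor therefore rests on the first probe. Pf4, platelet factor 4, is the neighbouring gene on chromosome 5 and is stored with the Ppbp product in platelet granules. Its arrays were 7.31, 6.65 and 6.04 in control and 6.49, 6.91 and 6.66 in the double cKO, which overlap, and the difference was 0.02 with a 95% interval from -1.10 to 1.13. None of the 3 platelet markers measured was called, and Itga2b, the platelet integrin with the highest mean among them, averaged 7.19 ± 0.05 (SD, n = 3) in control and 6.89 ± 0.69 (SD, n = 3) in the double cKO.

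Cxcl1, the main mouse ligand of Cxcr2 in inflamed epithelium, was near the floor in control at 4.55, 4.48 and 4.74. It reached 9.20, 6.45 and 6.64 in the Cdh1 cKO, 4.60, 5.92 and 5.49 in the P53 cKO, and 8.35, 7.40 and 7.66 in the double cKO. Neither group with Cdh1 ablated overlapped control, and the highest single value was a Cdh1 cKO uterus. The double cKO was at least 7.66-fold higher than control (adjusted p = 0.0232), a call that was lost without control replicate 1 or 2 or double cKO replicate 1 or 3, where adjusted p lay between 0.0776 and 0.0975. Cxcl2, its neighbour on chromosome 5 and a ligand of the same receptor, measured 4.41, 4.43 and 4.29 in control, 5.09, 4.35 and 4.87 in the Cdh1 cKO, 4.76, 4.64 and 4.37 in the P53 cKO, and 7.18, 4.67 and 6.50 in the double cKO. No control array was detected, and of the double cKO arrays replicates 1 and 3 were well above the floor and replicate 2 under it, and the double cKO, at least 2.38-fold higher, did not pass (adjusted p = 0.0923). A second Cxcl2 probe read 4.59, 4.28 and 6.61 in the double cKO, where only replicate 3 was detected. Its mean difference from control was 0.83, which is no bound.

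**Figure D2:**
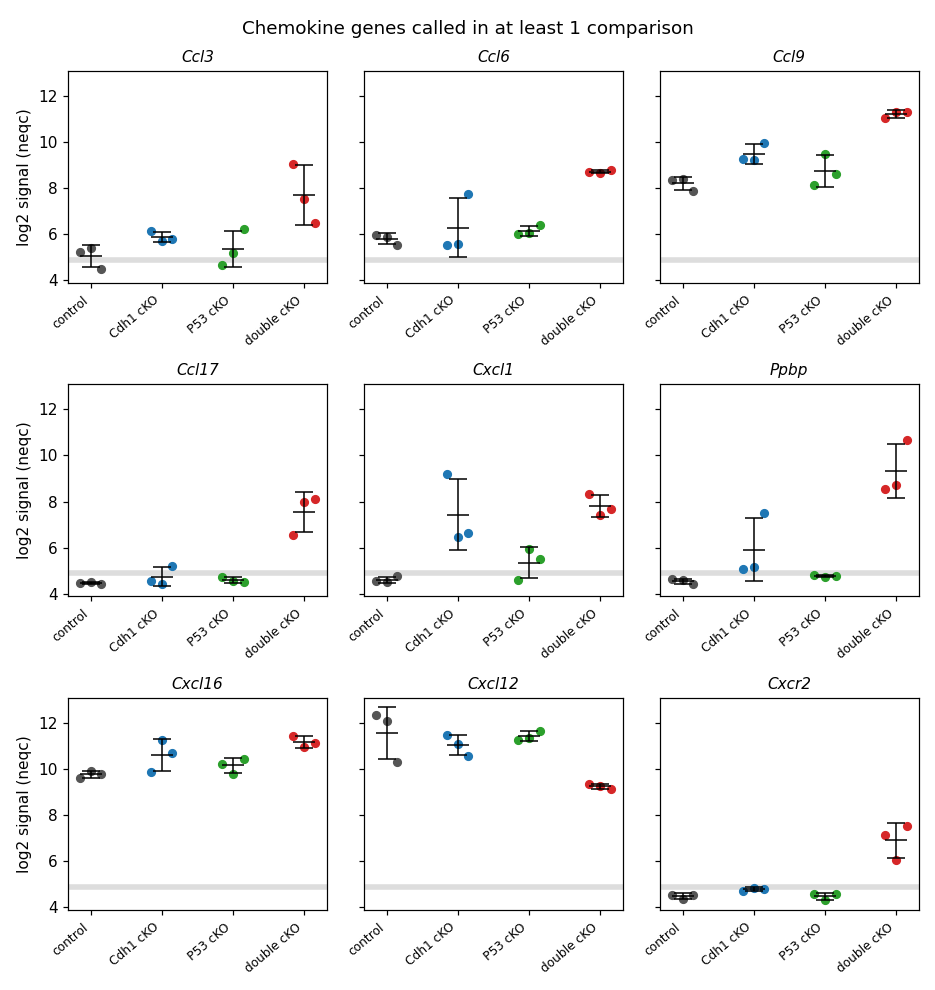
Log2 signal (y axis) of the 9 genes called between double cKO and control, by group (x axis). Points are arrays, 3 per group, bars are the mean with SD, and the grey band spans the lowest detected signal per array (4.80 to 4.98). All 3 double cKO arrays lie above the band for Ccl17, Cxcr2, Ppbp and Cxcl1, with Cxcl1 above it in the Cdh1 cKO too, and Cxcl12 is the 1 gene that fell.

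Ccl9, Ccl6 and Ccl3 are ligands of Ccr1, a receptor of monocytes and neutrophils, and the 3 genes lie in 1 cluster on chromosome 11 with Ccl5 and Ccl4, with no other protein-coding gene between neighbours. Ccl9 measured 8.35, 8.39 and 7.87 in control, 9.27, 9.20 and 9.96 in the Cdh1 cKO, 8.11, 9.50 and 8.59 in the P53 cKO, and 11.04, 11.31 and 11.29 in the double cKO. The double cKO arrays were the highest of the 12 and varied least among themselves, and those of the Cdh1 cKO lay above control without overlap. The rise over control was 8.05-fold (3.01 ± 0.33 on the log2 scale, SE, adjusted p = 8.53e-04). For Ccl6 the arrays were 5.98, 5.88 and 5.55 in control, 5.51, 5.57 and 7.74 in the Cdh1 cKO, 6.01, 6.04 and 6.38 in the P53 cKO, and 8.69, 8.67 and 8.79 in the double cKO. Only replicate 3 of the Cdh1 cKO came near the double cKO, which stood above all other arrays. The double cKO was 7.51-fold above control (2.91 ± 0.47, SE, adjusted p = 0.00957).

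Ccl3, also called MIP-1 alpha, measured 5.21, 5.41 and 4.49 in control, 6.12, 5.70 and 5.77 in the Cdh1 cKO, 4.67, 5.16 and 6.20 in the P53 cKO, and 9.05, 7.53 and 6.47 in the double cKO. All double cKO arrays exceeded every other array, with replicate 1 the highest and replicate 3 only just above the rest. Control replicate 3 was not detected, and the double cKO was at least 5.67-fold higher than control (adjusted p = 0.0369). The call was lost without any 1 control uterus and without double cKO replicate 1 or 2 (adjusted p from 0.0709 to 0.108), and without double cKO replicate 1 the fitted log2 difference, which is no bound, was 1.97 in place of 2.65. Ccl4, which lies next to Ccl3, had control values of 7.91, 6.79 and 7.03 and double cKO values of 10.13, 8.51 and 8.27. These did not overlap, and the difference did not pass the threshold (1.73 ± 0.45, SE, adjusted p = 0.0734). A second Ccl4 probe, detected on 10 arrays, did overlap, with control replicate 1 at 5.76 and double cKO replicate 3 at 5.45. Ccl5, which draws T cells and monocytes, lies at the far end of the cluster. Its arrays overlapped, with 7.34, 6.13 and 6.33 in control and 6.78, 6.98 and 6.01 in the double cKO (difference -0.01, 95% interval -1.01 to 0.99). Ccr1 itself was not detected on any of the 12 arrays, so the receptor of the ligands that rose could not be followed.

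Ccl17 attracts cells that carry Ccr4, such as helper T cells of type 2 and regulatory T cells, and is known as a product of dendritic cells and activated macrophages. Its signal was 4.44, 4.50 and 4.43 in control, 4.56, 4.42 and 5.20 in the Cdh1 cKO, 4.74, 4.55 and 4.50 in the P53 cKO, and 6.55, 7.97 and 8.11 in the double cKO. Of the 9 arrays outside the double cKO, 1 had a detected signal, Cdh1 cKO replicate 3, and no array of another group overlapped the double cKO. The double cKO was at least 6.40-fold higher than control (adjusted p = 0.00118). Ccl22, the other Ccr4 ligand of the list, is encoded close by on chromosome 8 and was not detected on any array.

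Cx3cl1, fractalkine, is the gene between Ccl22 and Ccl17 and makes a membrane-bound chemokine of epithelium and endothelium. It measured 7.34, 7.48 and 8.62 in control, 7.87, 9.03 and 8.95 in the Cdh1 cKO, 7.95, 7.82 and 8.17 in the P53 cKO, and 9.42, 9.05 and 9.48 in the double cKO. Double cKO arrays were above all 9 others, with Cdh1 cKO replicate 2 just below the lowest of them, and the difference from control did not pass (1.51 ± 0.37, SE, adjusted p = 0.0579); it passed without control replicate 3 (adjusted p = 0.0139) or Cdh1 cKO replicate 1 (adjusted p = 0.0305). Its receptor Cx3cr1, carried by monocytes and resident macrophages, ran from 7.01 to 7.89 in control and from 7.80 to 8.13 in the double cKO, which overlap (0.50 ± 0.27, SE, adjusted p = 0.373). The other membrane-bound chemokine, Cxcl16, measured 9.60, 9.93 and 9.77 in control, 9.86, 11.24 and 10.71 in the Cdh1 cKO, 10.24, 9.78 and 10.44 in the P53 cKO, and 11.45, 10.94 and 11.12 in the double cKO. Cdh1 cKO replicate 2 reached into the double cKO range, and no control array did. Cxcl16 rose 2.64-fold over control (1.40 ± 0.31, SE, adjusted p = 0.0424), with 1.43 from a second probe. This call is the closest to the threshold among the 9, and adjusted p lay between 0.0522 and 0.158 without any 1 control or double cKO uterus, Cdh1 cKO replicate 3, or P53 cKO replicate 1 or 3. Cxcr6, its receptor on T cells and NK cells, was not detected on any array.

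Cxcl12 is the homeostatic chemokine of stromal and endothelial cells, and its receptor Cxcr4 holds haematopoietic cells and lymphocytes in tissue. Cxcl12 measured 12.33, 12.06 and 10.29 in control, 11.46, 11.10 and 10.57 in the Cdh1 cKO, 11.24, 11.35 and 11.67 in the P53 cKO, and 9.34, 9.27 and 9.11 in the double cKO. On this probe, the 3 double cKO arrays were the lowest of the 12 and lay within 0.23 of each other. Control replicate 3 was far below the other 2 controls. Cxcl12 fell by 2.32 on the log2 scale (SE 0.44, adjusted p = 0.0214), and 2 further detected probes gave -1.43 and -1.50. On both, double cKO replicate 1 (9.44 and 9.02) lay above control replicate 3 (9.26 and 8.85), so the groups overlapped. Without control replicate 1 or 2, or any 1 double cKO uterus, adjusted p lay between 0.0566 and 0.103 and the difference between -2.37 and -1.94. Stromal markers moved the same way without a call, with 6 of 8 below 0 and a summed signal of 36251 to 41823 in the double cKO against 45566 to 49931 in control. In the Cdh1 cKO, 7 of 8 stromal markers were below 0, with a sum of 33165 to 43918. Cxcl12 there differed from control by -0.52 ± 0.44 (SE, adjusted p = 0.769). The stromal sum in the P53 cKO ran from 41488 to 52458. Of 7 endothelial markers, 5 were below 0 and 2 above. Cdh5 fell by 1.11 (adjusted p = 0.0331), the 1 call among them. Vwf went the other way without a call, averaging 8.79 in control and 9.85 in the double cKO without overlap. The part of either cell type in the Cxcl12 result was not tested. Cxcr4 read 6.55, 7.70 and 7.55 in control, 7.88, 7.77 and 6.58 in the Cdh1 cKO, 7.74, 5.68 and 7.54 in the P53 cKO, and 7.99, 7.92 and 8.19 in the double cKO. The double cKO arrays were the 3 highest, but the difference from control did not pass (0.77 ± 0.54, SE, adjusted p = 0.519).

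The monocyte chemokines Ccl2, Ccl7 and Ccl12, ligands of Ccr2, sit together on chromosome 11 with Ccl8 and Ccl11, and none of the 5 was called in any comparison. Ccl7 measured 7.14, 6.26 and 7.96 in control, 8.85, 6.53 and 10.48 in the Cdh1 cKO, 6.67, 9.92 and 5.46 in the P53 cKO, and 8.21, 8.33 and 8.19 in the double cKO. The Cdh1 cKO spread over 3.94 log2 units, the P53 cKO over 4.46 and the double cKO over 0.14. The same uteri stood out for Ccl8, Ccl11 and Ccl12, where Cdh1 cKO replicate 3 was at 11.16, 12.31 and 9.25 and P53 cKO replicate 2 at 9.78, 10.58 and 8.59, each the highest of its group. Ccl2 was under or near the floor, with no detected control array. In the double cKO, Ccl7 (1.13 ± 1.11, SE), Ccl8 (1.48 ± 0.76, SE) and Ccl12 (1.32 ± 0.81, SE) stood above control without overlap, and Ccl11, an eosinophil attractant, did not (-0.83 ± 1.20, SE). Ccr2, the receptor of monocytes that leave the marrow, measured 4.50, 5.06 and 4.80 in control and 5.81, 5.74 and 5.27 in the double cKO. It was detected on 1 control array and on all 3 of the double cKO, and the double cKO was at least 1.60-fold higher with an adjusted p of 0.0582. A second Ccr2 probe was detected on 0 arrays, so this difference rests on 1 of 2 probes.

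**Figure D3:**
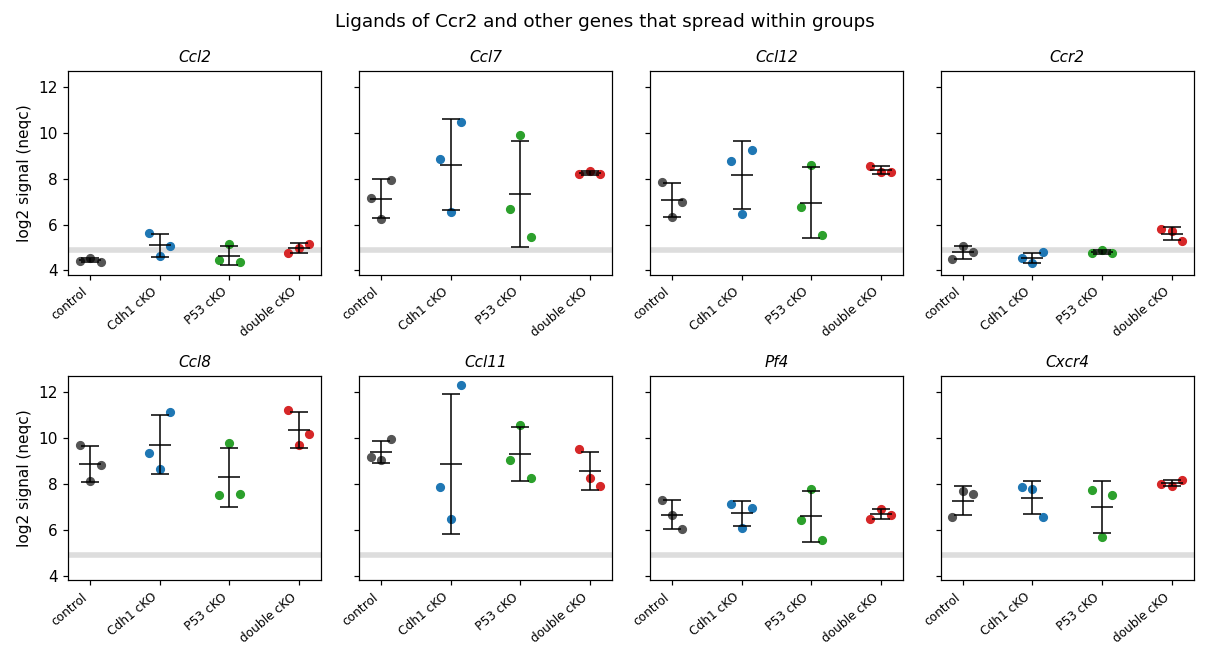
Log2 signal (y axis) by group (x axis) of 8 chemokine genes that were not called in any comparison; points are arrays, 3 per group, with mean and SD. Ccl7, Ccl8, Ccl11 and Ccl12 each peak in Cdh1 cKO replicate 3 within the Cdh1 cKO and in P53 cKO replicate 2 within the P53 cKO, while double cKO arrays lie close together for Ccl7 and Ccl12.

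The chemokines that interferon induces showed no call. Cxcl9 and Cxcl10 bind Cxcr3 on activated T cells and NK cells. Cxcl9 ran from 5.39 to 6.94 in control and from 5.21 to 6.36 in the double cKO, and Cxcl10 from 4.87 to 5.84 and from 5.58 to 7.32, so both overlapped between these groups. The difference for Cxcl9 was -0.47 ± 0.42 (SE, adjusted p = 0.645), and Cxcl10 was at least 2.05-fold higher in the double cKO (adjusted p = 0.247). Cxcr3 overlapped as well, with 4.98 to 5.74 in control and 4.80 to 5.32 in the double cKO. The lymphoid ligand Ccl19 and its receptor Ccr7, which bring T cells and dendritic cells to lymph nodes, were near the floor in every group, as was Ccl20, the ligand of Ccr6. Ccl25, a ligand of Ccr9 known from thymus and gut, and Cxcl14, a chemokine of epithelium, were detected on all arrays and not called, with differences of -0.20 ± 0.27 and 0.39 ± 0.58 (SE). In all, 21 of the 30 genes were called in no comparison, and their group means ran from 4.38 to 11.15.

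With P53 intact, ablation of Cdh1 alone changed no chemokine gene by the test. At an adjusted p below 0.05, 0 of 30 genes were called by limma, where 0.0082% of all genes were (1 gene); 4 genes, all higher, had an unadjusted p below 0.05, as did 4.07% of all genes in that direction. These were Cxcl1, at least 5.92-fold higher (adjusted p = 0.230), Ccl9, with a difference of 1.27 ± 0.33 (SE, adjusted p = 0.302), Cxcl16, with 0.84 ± 0.31 (SE, adjusted p = 0.476), and Ccl2 (adjusted p = 0.514). Arrays did not overlap control, with the Cdh1 cKO higher, for 6 genes, where 5.23% of all genes were separated this way. These were Ccl2, Ccl3, Ccl9, Cxcl1, Ppbp and Cxcr2, but Cxcr2 was detected on no array of either group, so its values have no order. Ccl2 had no detected control array and Cdh1 cKO replicate 2 under the floor at 4.62, where values carry no order. On the second Ppbp probe, only replicate 3 of the Cdh1 cKO was detected. The median over the 30 genes was 0.36, or 0.19 with bounds in place of the fitted values of 12 genes, against -0.03 over all genes.

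The P53 cKO was the group closest to control in these genes. Again 0 of 30 were called, with 0.0164% of all genes called (2 genes), and none reached an unadjusted p below 0.05, which 2.38% of all genes did. Ccl5 had the smallest p, with 6.82, 8.56 and 7.31 in the P53 cKO against 7.34, 6.13 and 6.33 in control. Its arrays overlapped, and the difference of 0.96 ± 0.45 (SE) had an adjusted p of 0.9995. By value, 3 genes (Ccl6, Ccl17 and Ppbp) lay above control without overlap, against 4.13% of all genes, but Ccl17 and Ppbp were detected on no array of either group, and their values have no order. Ccl6 differed by 0.34 ± 0.47 (SE). The median over the 30 genes was 0.08, against -0.01 over all genes, and 13 of the fitted values behind it are not measured on every array of the lower group.

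**Figure D4:**
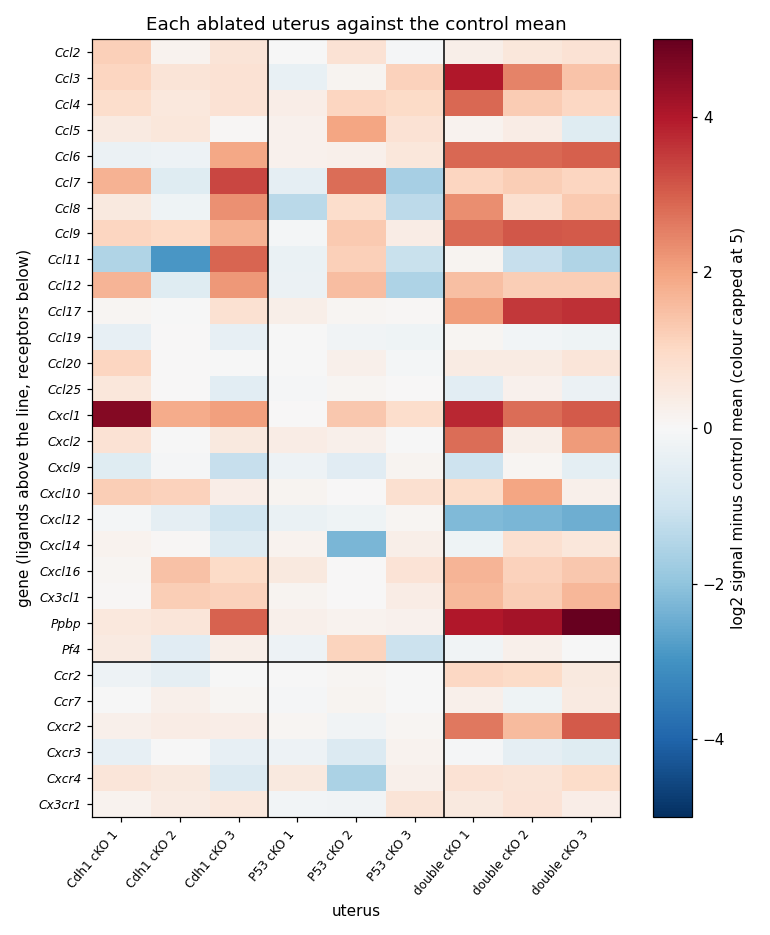
Log2 signal of each of the 9 ablated uteri minus the control mean, for the 30 genes (rows) in the Cdh1 cKO, P53 cKO and double cKO (columns, 3 uteri each), with the colour scale ending at 5 in both directions. The double cKO columns are red for Ppbp, Ccl17, Ccl9, Ccl6 and Cxcr2 and blue for Cxcl12, and Cdh1 cKO replicate 3 stands out from its group for Ppbp, Ccl6 and Ccl11.

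Against the Cdh1 cKO, the double cKO differed in 2 of 30 genes, both higher, where 0.492% of all genes were called and 0.459% were higher. The rise of Ccl17 was at least 5.90-fold (adjusted p = 0.00653) and that of Cxcr2 at least 4.06-fold (adjusted p = 0.0107), the latter with an adjusted p of 0.0534 without Cdh1 cKO replicate 1. Both genes were kept through the double cKO arrays, which partly fixed their difference. Neither passed when only these 2 groups were fitted (adjusted p = 0.139 and 0.181), nor did Cxcr2 without background correction (adjusted p = 0.066). Ppbp (3.40 ± 0.64, SE, adjusted p = 0.0533), Ccl9 (1.74 ± 0.33, SE, adjusted p = 0.0533), Ccr2 (at least 1.65-fold, adjusted p = 0.0538) and Ccl6 (2.44 ± 0.47, SE, adjusted p = 0.0545) came close without passing. Of these, Ccr2 was kept through the double cKO arrays too. Without Cdh1 cKO replicate 3, Ccl6 (adjusted p = 1.48e-04), Ppbp (adjusted p = 0.00515) and Ccl9 (adjusted p = 0.0383) passed, and that uterus was the highest of its group for all 3. Cxcl1 was not separated from the Cdh1 cKO, whose replicate 1 exceeded every double cKO array.

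Set against the P53 cKO, the double cKO differed in 6 of 30 genes, 5 higher and 1 lower, where 1.44% of all genes were called, 1.27% higher and 0.172% lower. For Ccl17 the rise was at least 6.35-fold (adjusted p = 0.00243), for Cxcr2 at least 4.08-fold (adjusted p = 0.00253) and for Ppbp at least 21.6-fold (adjusted p = 0.0053). Ccl9 was 2.48 ± 0.33 higher (SE, adjusted p = 0.00365) and Ccl6 2.57 ± 0.47 higher (SE, adjusted p = 0.0258), and Cxcl12 fell by 2.18 (SE 0.44, adjusted p = 0.0394). The Ccl6 call was lost without any 1 uterus of these groups (adjusted p from 0.0639 to 0.116). Cxcl12 was not called without any of these uteri, control replicate 2 or Cdh1 cKO replicate 2 (adjusted p from 0.0535 to 0.163).

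Whether the double cKO departed from the sum of the single ablations was asked with the interaction term, which is the double cKO minus both single cKOs plus control. None of the 30 genes was called by limma, where 0.0984% of all genes were (12 genes), and 7 of the 30 had an unadjusted p below 0.05, 6 above 0 and 1 below, against 4.78% of all genes. Ccl17 had the smallest p (adjusted p = 0.189), with an adjusted p of 0.00339 without double cKO replicate 1. As Ccl17 was detected on 1 of the 9 arrays outside the double cKO, 3 of the 4 group means in its term lie near the floor, and the size of the departure is not measured. Among the 7, the same limit holds for Cxcr2 (means of 4.47, 4.79 and 4.47 in control, Cdh1 cKO and P53 cKO) and Ccr2 (4.79, 4.55 and 4.80). Ppbp, also among the 7, was detected on no control or P53 cKO array, so its departure is not measured either. Whether the double cKO differs more from 1 single cKO than from the other was not tested.

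The rest of the chemokine system was read from further lists between double cKO and control, where 1.91% of all genes were higher. Of the inducers of chemokines, 6 of 14 measured genes rose and none fell, led by Il1b, at least 46.5-fold higher (adjusted p = 3.72e-04), Tnf, at least 2.86-fold (adjusted p = 4.60e-04), Il1a, at least 9.86-fold (adjusted p = 0.00268), and Tnfaip3, the NF-kappaB feedback inhibitor, with 1.96 ± 0.30 (SE, adjusted p = 0.00614). Mmp12, a macrophage protease known to trim CXC chemokines, was the 1 of 7 processing genes that rose (at least 9.83-fold, adjusted p = 5.91e-05). Tnf and Mmp12 were each detected on the 3 double cKO arrays and on 2 Cdh1 cKO arrays. Both passed the detection rule only with the double cKO, which partly fixed their rise. Among 24 genes that relay the receptor signal, 2 rose: Vav1, an exchange factor of leukocytes (1.47 ± 0.26, SE, adjusted p = 0.015), and Rgs16, which limits G protein signalling (1.72 ± 0.35, SE, adjusted p = 0.0287). Of the 3 other receptors measured, Cxcr1 rose as given above, with the limit given there. None of the 6 other ligands passed, of which Ccl21a had the highest mean (12.33 in control and 11.69 in the double cKO) and has near-identical gene copies that a probe may not separate. None of the 4 atypical receptors, which bind chemokines without G protein signalling, passed, and Ackr1, the one with the highest mean, averaged 7.39 in control and 7.57 in the double cKO.

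Among the marker lists, those of macrophages and neutrophils held genes that rose in the double cKO, where 1.91% of all genes did. Of 11 macrophage markers 4 rose, Lyz2, C1qc, Fcgr1 and C1qa, and their list's summed signal ran from 5262 to 10264 in control, 10067 to 14005 in the Cdh1 cKO, 7082 to 11064 in the P53 cKO and 27723 to 28709 in the double cKO. Neutrophil markers rose in 4 of 8, S100a8, S100a9, Csf3r and Trem1, with S100a8 5.70 ± 0.54 above control (SE, adjusted p = 3.72e-04). Mpo, Elane, Ltf and Retnlg were not called. Retnlg was the 1 marker below 0, averaging 8.96 in control and 8.53 in the double cKO. Ly6g, Camp, Ngp and Fpr1 were not among the genes measured. Trem1 was detected on the 3 double cKO arrays and on 1 Cdh1 cKO array, so it was kept through the group where it is high. Most of that list's summed signal came from Ltf, which uterine epithelium also makes. Without Ltf, an omission chosen after its values were seen, the sum was 741 to 1035 in control, 699 to 2246 in the Cdh1 cKO, 820 to 2512 in the P53 cKO and 4567 to 8178 in the double cKO. The part of macrophages and neutrophils in the rise of Cxcr2, Ppbp, Ccl3, Ccl6, Ccl9 and Ccl17 was not tested. No T and NK cell (7), B cell (1), dendritic cell (4), mast cell (6), eosinophil (1), platelet (3), smooth muscle (6), epithelial (8), oviduct (5), red blood cell (2) or uterine identity marker (8) was called among those measured, whose numbers stand in brackets.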

How the data were processed

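RNA of 12 uteri, 1 Illumina bead array each, was analysed in 4 groups of 3. Per the file headers, the deposited table gives for every probe and array an intensity without normalization and its detection p-value; 24 columns of bead numbers and bead errors were not used. The authors also deposited a matrix of log2 values, whose normalization is not given in the sources used here; it differed from the values computed here by at most 0.0234, with column medians of 4.72, so it is on the same scale and not centred on genes. The submitters' processing notes name limma 3.10.2.

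The neqc function (limma 3.58.1, R 4.3.3, offset 16) corrected the background, normalised by quantiles and took log2. Of 45281 probes, 34885 had 1 symbol in the platform annotation, 18 several and 10378 none, and 99.8% of the first were matched to RefSeq genes (GRCm38.p6). Detection at p below 0.05 was required on at least 3 arrays, and the probe with the highest mean stood for each gene, which gave 12194 genes. Limma was fitted to the 12 arrays with group as the only factor (8 residual degrees of freedom, prior 2.84) with eBayes and 6 contrasts. P-values were 2-sided and Benjamini-Hochberg adjusted over all 12194 genes; calls are those below 0.05. Where a probe was not detected on every array of the dimmer group, the fold is given only as a bound (its adjusted p is that of the fit): "at least N-fold" sets the brighter mean against, per array, the higher of the lowest detected signal and the probe's own value. The precision is limited by 3 uteri per group. The p-values set differences of group means against the spread between uteri within groups, pooled over the 4 groups and moderated by eBayes. The fit was tested on simulated data.

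The genes, lists and tests were chosen with earlier results of these data known. Every gene kept is named; values per array are given for genes called in any contrast, their receptors or ligands, and the gene with the smallest p where none was called; array values of further genes were added after their values were seen. In the other lists, called genes (at most 4 per list, by smallest adjusted p) are named, or the one with the highest mean. Replicate numbers were checked as pairs, although the labels do not call them pairs. Deviations of same-numbered arrays correlated at 0.22, 0.33 and 0.30 between control and Cdh1 cKO, and between -0.65 and 0.33 over all groups. Arrays of different groups with different numbers correlated between -0.28 and 0.56. Whether the numbers mark pairs is therefore not known, and the main fit used no pairing. A fit with the number as a block left the count of chemokine genes called between control and Cdh1 cKO at 0. Alternatives covered normalization, probe choice, detection filter, groups fitted, moderation, array weights, the block and leaving out each array.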

Additional observations from a re-analysis of the deposited data

Results flagged for a closer look

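Among the genes left out for too few detected arrays, a signal appeared in ablated uteri and in no control. Cxcl13, the B cell chemokine, was detected on 2 arrays, with its highest log2 signal of 5.57 in Cdh1 cKO replicate 2. Ccr3, a receptor of eosinophils, was detected on 1 array, with 4.84 in P53 cKO replicate 3, within the range of the floor. Neither was tested between groups.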

How the results depend on the processing

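Of 17 gene and comparison calls, 9 held under all alternatives that tested the gene; a stricter detection filter (p below 0.01 on at least 6 arrays) removed genes such as Ccl17 and Cxcr2 from testing. No direction reversed. Between double cKO and control, 9 chemokine genes were called, against 16 with array weights and 5 to 10 when each array was left out. Against the Cdh1 cKO the count of 2 became 0 with the stricter filter or with only the groups compared, 4 with the mean of detected probes or trended robust moderation, 5 with array weights, and 1 to 5 when each array was left out. Against the P53 cKO the count of 6 became 3 with the stricter filter, 15 with array weights and 4 to 7 on leaving out arrays. For the interaction 0 became 1 (Ccl17) with array weights, and 0 to 1 without single arrays; both single ablations against control stayed at 0 throughout. Array weights were estimated gene by gene from the same arrays, because the default method did not converge.

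Over all genes, the double cKO against control gave 333 calls, with 2482 under array weights, 214 under the replicate block and 117 to 553 without single arrays. Against the Cdh1 cKO, 60 became 17 (stricter filter), 7 (only the groups compared) and 27 to 80 (arrays left out). Against the P53 cKO, 176 became 108 (stricter filter), 1531 (array weights), 104 (replicate block) and 68 to 222 (arrays left out). The interaction's 12 became 4 (quantile normalisation with no background correction), 0 (no filter), 1 (stricter filter), 2 (mean of probes), 27 (array weights), 0 (replicate block) and 0 to 17 (arrays left out). For the Cdh1 cKO, 1 became 0 (no background correction, no filter, or only the groups compared), 3 (array weights) and 0 to 38 (arrays left out); for the P53 cKO, 2 became 1 (only the groups compared), 4 (array weights) and 2 to 9 (arrays left out). The replicate block, whose numbers are not known to mark pairs, left 7 chemokine calls against control (without Ccl3 and Cxcl16), 3 against the Cdh1 cKO and 5 against the P53 cKO. The cause of these shifts was not tested. Signals near 4.80 to 4.98 have no usable order.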
